A study of Bos taurus with 4 samples.

Results

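Transcripts of the sperm nuclear packaging genes were examined in ejaculated buffalo spermatozoa, namely the protamines PRM1 and PRM2 and the transition proteins TNP1 and TNP2. The members were all non-control probes that the array design names for these 4 genes, which gave 10 of 51282 probes and 4 of 32429 gene names. PRM2 and TNP1 had 3 probes each, and PRM1 and TNP2 had 2 each. The rule used the gene names and no measured value, and the genes were picked with earlier results of these data known.

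During the last phase of sperm formation, the histones of the spermatid are displaced first by transition proteins and then by protamines. Protamines are short, arginine-rich proteins that bind along the DNA and draw the chromatin into a compact, transcriptionally silent state, with PRM1 present in all mammals and PRM2 made as a precursor that is cut to its mature form. Their mRNAs are transcribed in round spermatids, stored in a repressed form and translated later, so the mRNA found in ejaculated sperm is a remnant of that stage.

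Sperm RNA was compared between high-fertile and low-fertile Murrah buffalo bulls, breeding animals ranked by the conception rate of inseminations in the field. Each group comprised 2 pools, and each pool held equal amounts of RNA from 2 bulls after Percoll selection of the sperm, which separates them from other cells by density. Because the RNA was mixed before labelling, pools serve as replicates and the spread between bulls was not measured. The sources used here do not say which bull went into which pool. The 4 pools were labelled with a single dye and hybridized to a bovine (Bos taurus) array of 60-base probes. The RNA came from water buffalo (Bubalus bubalis), although the sample labels list the cattle species, and the match of each probe to the buffalo transcript was not assessed here. Because the same study stained sperm for protamine deficiency, the question asked of these genes is whether the amount of their mRNA differed between the fertility groups. In bulk sperm RNA, fewer cells of a type and less RNA per cell cannot be told apart.

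Each group filled its own row of a single slide, which means that slide row and fertility cannot be told apart. With 2 pools a group, the smallest two-sided p of an exact permutation test is 0.333, so testing rested on limma, which shares the estimate of the spread among all tested probes. The scanner software marked 13033 probes as well above background in low-fertile pool 2 and between 23228 and 25642 in the other pools. Precision is limited by there being 4 arrays.

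The 10 probes differed in detection. Signals were well above background on all 4 arrays for 3 probes, against 24.5% of all probes, and on none for another 3 probes, against 42.7%. Of the 10, high-fertile pools 1 and 2 each had 4 well above background, low-fertile pool 1 had 6 and low-fertile pool 2 had 3. The probes seen on all arrays were both probes of PRM1 and 1 probe of TNP1. None of the PRM2 and TNP2 probes was well above background on more than 1 array. Only the 3 probes seen on all arrays could be tested, as the test required a mark of well above background from both pools of either group (41.0% of all probes met this), and none of the 3 entered through 1 group alone. No spot of the members was saturated. Values are given on 2 scales. The signals of single pools are processed signals, the background-subtracted intensities before any scaling between arrays, and group means, differences, tests and statements that groups do or do not overlap are on the normalized log2 signal, which is the log2 processed signal minus the 75th percentile of that array, where the percentile was a signal of 36.7, 37.1, 37.0 and 32.7 in high-fertile pools 1 and 2 and low-fertile pools 1 and 2. Levels are not compared between probes, because probes differ in how well they bind.

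**Figure D1:**
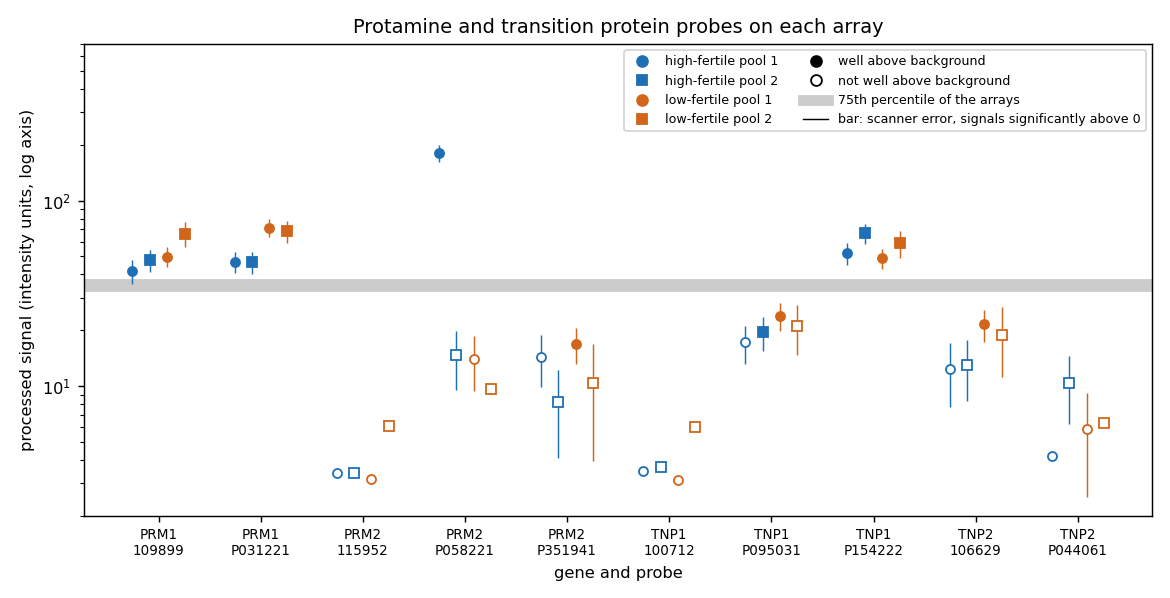
Processed signal (intensity units, log axis) of each of the 10 probes on the 4 arrays, in blue for the high-fertile and orange for the low-fertile pools, with filled symbols where the spot was well above background and bars for the scanner's own error where a signal was significantly above 0. Both PRM1 probes and TNP1 probe P154222 lie above the grey band of the array percentiles (32.7 to 37.1) in all pools, while PRM2 probe P058221 does so in high-fertile pool 1 alone, at 180 units.

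PRM1, the main protamine of bovine sperm, was higher in the low-fertile pools by 1 of its probes. The processed signal of probe A_73_P031221 was 46.7 and 46.5 in high-fertile bulls and 71.6 and 68.6 in low-fertile bulls. The groups did not overlap, and the scanner's own error of a spot, which leaves out the spread between animals, ranged from 6.04 to 9.34. The normalized log2 signal was 0.34 ± 0.02 (SD, n = 2) in the high-fertile and 1.01 ± 0.08 (SD, n = 2) in the low-fertile group. The difference was 0.67 on the log2 scale (SE 0.143, 95% interval 0.32 to 1.03), a 1.60-fold higher signal in low-fertile bulls, and it passed limma with an adjusted p of 0.0231. It was the only one of the 3 tested probes to pass. Over the whole array 26.8% of the 21033 tested probes passed, 9.22% as higher and 17.6% as lower in the low-fertile group.

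The call depended on the number of pools, the filter, the test and the scaling. Leaving out high-fertile pool 1 gave a difference of 0.69 with an adjusted p of 0.0959, leaving out high-fertile pool 2 gave 0.66 (0.107), and leaving out low-fertile pool 2 gave 0.61 (0.0738). When the arrays were scaled to the 7 spike-in probes, which moved the median difference of all tested probes to -0.38, the PRM1 difference was 0.30 with an adjusted p of 0.113, and after normexp correction it was 0.32 with an adjusted p of 0.00783. The unchanged difference had an adjusted p of 0.229 when limma ran with no filter on dim probes, and of 0.0964 by the methods' t-test. Its direction was the same in all 15 alternatives, with differences between 0.30 and 0.73.

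The other PRM1 probe pointed the same way without passing. The signal of A_73_109899 was 41.7 and 47.8 in the high-fertile and 49.9 and 66.3 in the low-fertile pools. The groups did not overlap, but high-fertile pool 2 and low-fertile pool 1 lay within 1 scanner error of each other, and low-fertile pool 2 stood above the rest. The difference was 0.45 on the log2 scale (95% interval -0.13 to 1.03, adjusted p = 0.201 in limma), and it was 0.75 with an adjusted p of 0.0479 without low-fertile pool 1 and 0.15 without low-fertile pool 2. It was 0.080 under spike-in scaling and 0.12 after normexp correction.

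A further probe, A_73_P058211, carries an Ensembl name in place of the gene symbol and is described in the array design as sperm protamine P1, so it stood outside the rule but bears on the same transcript. Its signal was 57.9 and 60.6 in the high-fertile and 76.3 and 63.5 in the low-fertile pools. The groups again did not overlap. The log2 difference was 0.32 (95% interval -0.04 to 0.67, adjusted p = 0.152 in limma). It was 0.23 with an adjusted p of 0.0287 after normexp background correction, and -0.054 under spike-in scaling.

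These probes read nearly the same stretch of mRNA and are not independent measurements of PRM1. A_73_109899 and A_73_P031221 share 44 bases with 0 mismatches, and A_73_P031221 and A_73_P058211 share 52 bases with 1 mismatch, G60A, where the base of A_73_P031221 comes first and positions count from its 5′ end. Parts of A_73_P031221, which passed, and A_73_P058211, which did not, are printed because they differ here by that base alone. A_73_109899 did not pass either, although its 44 shared bases hold no mismatch to A_73_P031221. Capitals mark AATAAA, the usual hexamer of the polyadenylation signal.
PRM1 A_73_P031221, bases 31 to 60: cgaacaatgccacctgtcAATAAAtgttgg
PRM1 A_73_P058211, bases 23 to 52: cgaacaatgccacctgtcAATAAAtgttga

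Read on the strand printed on the array, this hexamer occurs in 3 of the 10 member probes and in 8.35% of all 51282 probes. The array design, which gives positions on the bovine assembly Btau_3.1, places A_73_109899 at chr25:10966344-10966403 on the plus strand, A_73_P058211 at chr25:10966368-10966427 on the plus strand and A_73_P031221 at chr25:10996747-10996805 on the minus strand. Probes that overlap base for base are thus listed at positions far apart. No annotation of the build was used here, so the place of a probe in an exon was not looked up.

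PRM2, the protamine that is processed from a precursor, was close to background. Probe A_73_P058221 gave a signal of 180 in high-fertile pool 1 and 14.6, 14.0 and 9.58 in high-fertile pool 2 and low-fertile pools 1 and 2. Only the first of these was well above background. On that array 5 of the 6 nearest spots were off from the other arrays by over 2 log2 units, against 0, 1 and 0 on the other arrays in the same order. The log2 difference was -2.06 with all spots and -0.23 when spots with at least 2 such neighbours were left out, and without 1 pool at a time it ranged from -3.88 to -0.24. Without high-fertile pool 1 the difference was -0.24.

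The other PRM2 probes gave no difference that could be tested. A_73_P351941 gave 14.4 and 8.16 in the high-fertile and 16.9 and 10.4 in the low-fertile pools, well above background in low-fertile pool 1 alone, and the groups overlapped. A_73_115952 gave 3.38, 3.42, 3.17 and 6.12 in the same order and rose well above background on none of the arrays. Each PRM2 probe was thus well above background on 1 array at most, and a difference between the groups could not be tested at this signal. By the scanner's weaker mark, a signal significantly above 0, A_73_P351941 was positive on 4 arrays, A_73_P058221 on 3 and A_73_115952 on 0. The probes are shown because they read different parts of the transcript, which share no bases: A_73_P058221 (chr25:10973667-10973726, plus strand, Btau_3.1) has the polyadenylation hexamer, in capitals, and A_73_P351941 (chr25:10973217-10973276, plus strand) has no stop codon in any of its 3 frames.
PRM2 A_73_P058221, bases 31 to 60: aaaagtcatctgccaAATAAAgcttgagat
PRM2 A_73_P351941, bases 1 to 60: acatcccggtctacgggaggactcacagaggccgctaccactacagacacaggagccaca

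TNP1, the transition protein that loads onto spermatid DNA as histones leave, did not pass by its detected probe. The signal of A_73_P154222 was 52.0 and 66.5 in the high-fertile and 48.8 and 58.9 in the low-fertile pools. The groups overlapped on this scale and on the normalized scale. The normalized log2 signal was 0.67 ± 0.24 (SD, n = 2) in the high-fertile and 0.63 ± 0.32 (SD, n = 2) in the low-fertile group. The difference was -0.046 on the log2 scale (95% interval -0.59 to 0.50, adjusted p = 0.891 in limma). The interval is wide and does not show that the groups were alike. The sign turned in 3 of the 15 alternatives, with values from -0.42 to 0.18.

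The remaining TNP1 probes were dim. A_73_P095031 gave 17.2 and 19.6 in the high-fertile and 23.9 and 20.9 in the low-fertile pools and was well above background in high-fertile pool 2 and low-fertile pool 1. Its groups did not overlap, at a log2 difference of 0.37 that was not tested and that came to 0.0011 under spike-in scaling. A_73_100712, which shares 32 bases with it, gave 3.47, 3.65, 3.11 and 6.03 and rose well above background on none of the arrays, so overlapping probes of TNP1 lay on both sides of detection.

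The detected TNP1 probe was designed on an expressed sequence tag and lies apart from the other probes on the bovine map. It is at chr2:109106799-109106858 on the minus strand of Btau_3.1, and A_73_P095031 is at chr2:109106110-109106169 and A_73_100712 at chr2:109106138-109106197 on the same strand. That it reads the same transcript as the others rests on the array's naming and was not tested. Ends of a detected and a dim probe are shown because these probes of TNP1 differed in detection, and capitals mark the polyadenylation hexamer in the dim one.
TNP1 A_73_P095031, bases 31 to 60: ctaacatctcAATAAAaattttgaaagctg
TNP1 A_73_P154222, bases 1 to 30: tatatattacccaactgtaacaaagcctag

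TNP2, the larger and less conserved transition protein, was at the edge of detection. A_73_106629 gave 12.3 and 13.0 in the high-fertile and 21.6 and 18.9 in the low-fertile pools. The groups did not overlap, but only low-fertile pool 1 was well above background, so the probe was not tested. Its log2 difference was 0.76, a value that rests on high-fertile signals not well above background, and it stayed positive in all 12 alternatives that gave one, from 0.12 after normexp correction to 0.87. When all probes were fitted without a filter, the limma p was 0.0202 and the adjusted p 0.193. A_73_P044061 gave 4.17, 10.4, 5.84 and 6.29 and rose well above background on none of the arrays, and a further probe described as TNP2 but named by an Ensembl identifier, A_73_P058226, gave 4.34, 3.98, 3.37 and 6.45, again with none well above background.

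The TNP2 members adjoin in the transcript and yet differed in detection. They share 12 bases, in capitals, at the 3′ end of A_73_P044061 and the 5′ end of A_73_106629. In Btau_3.1 the design lists A_73_P044061 at chr25:10979512-10979571 on the plus strand and A_73_106629 at chr25:10987920-10987973 on the minus strand, again apart despite the shared bases.
TNP2 A_73_P044061, bases 1 to 60: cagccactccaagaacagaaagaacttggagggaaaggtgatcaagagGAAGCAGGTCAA
TNP2 A_73_106629, bases 1 to 60: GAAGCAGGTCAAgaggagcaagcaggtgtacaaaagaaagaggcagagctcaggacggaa

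The faintest probes followed the array background. PRM2 A_73_115952, TNP1 A_73_100712 and the TNP2 probe A_73_P058226 each had their processed signal lowest in low-fertile pool 1 and highest in low-fertile pool 2. On the 4 arrays, in the order used above, the 308 negative control spots had median processed signals of 3.88, 3.95, 3.35 and 6.36, so the same pools were lowest and highest there. The scanner software writes a surrogate value for spots that do not exceed the background, and the log2 differences of 0.46, 0.37 and 0.25 of these 3 probes are given as values only.

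Across the 10 probes, 7 had a higher and 3 a lower mean in the low-fertile group, a count that includes the 3 probes seen on no array. Of the 7 probes well above background on at least 1 array, 5 were higher and 2 lower. Over all 10 the differences ranged from -2.06, the PRM2 probe with the bright patch (-0.23 without it), to 0.76, with a median of 0.37 against 0.12 for all probes on the array. These counts are descriptions and have no test, and no share of higher probes over the whole array is set beside them. The groups did not overlap for 5 of the 10, of which 4 were higher in the low-fertile pools, whereas the groups were apart for 49.0% of all probes and apart and higher for 26.6%. Among the 3 tested probes the median difference was 0.45, against -0.0047 for all tested probes, and the groups were apart and higher for 2 of the 3 (69.1% of tested probes were apart and 33.6% apart and higher).

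**Figure D2:**
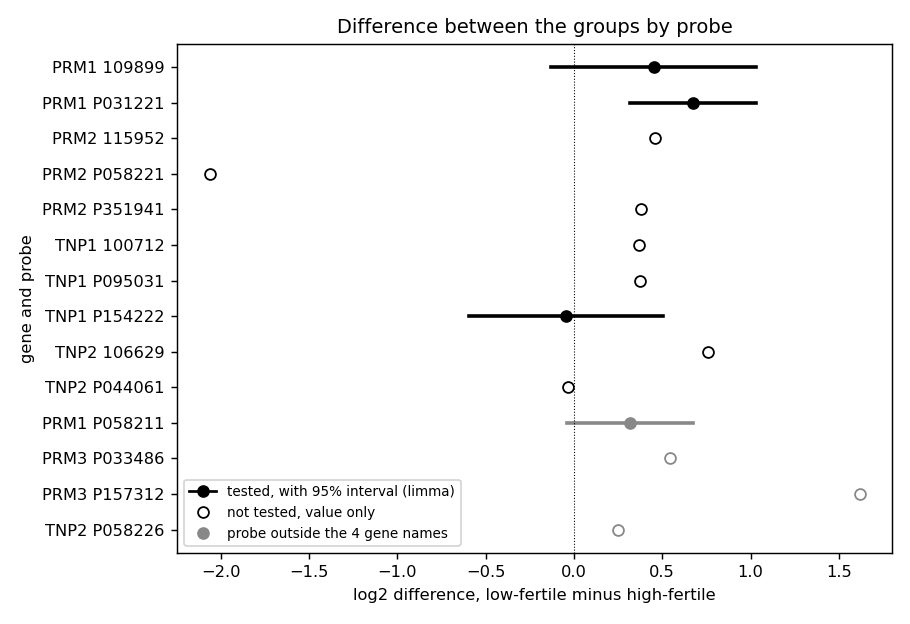
Log2 difference (low-fertile minus high-fertile) of the 10 probes in black and of 4 related probes outside the gene names in grey, with the 95% interval of limma for tested probes (filled) and the value alone for the others (open). The interval of PRM1 P031221 (0.32 to 1.03) lies to the right of 0, and those of PRM1 A_73_109899, PRM1 P058211 and TNP1 P154222 include 0.

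**Figure D3:**
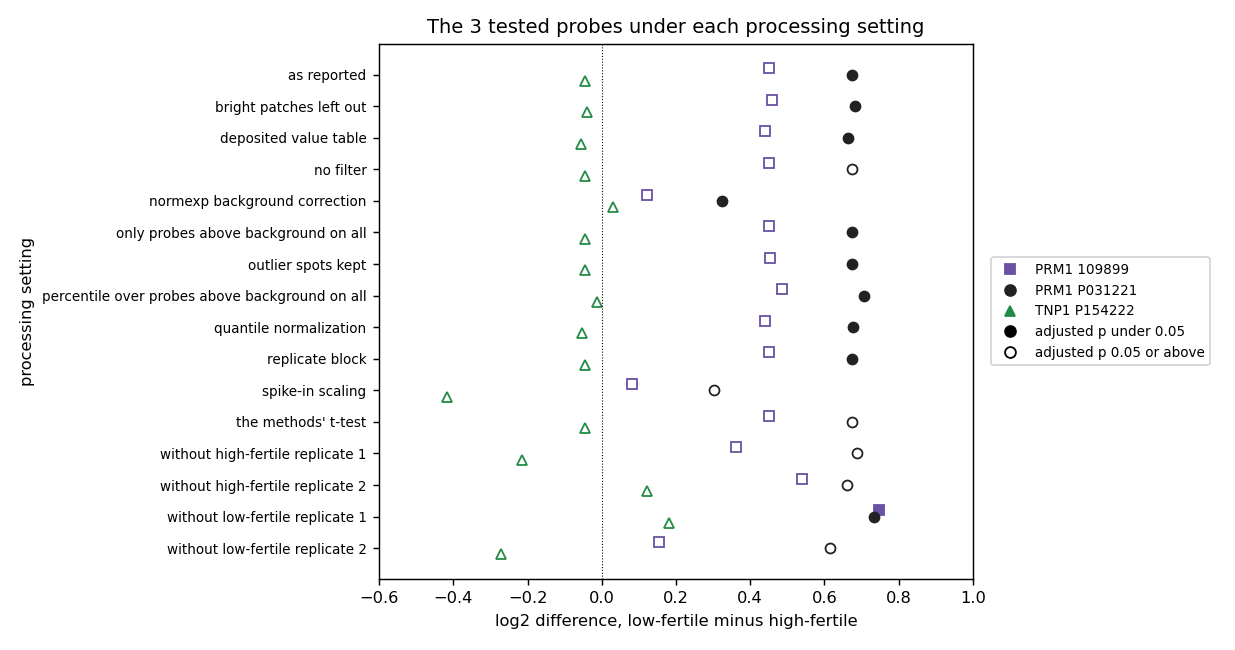
Log2 difference (low-fertile minus high-fertile) of the 3 tested probes, on the x axis, under the reported processing and each of the 15 alternatives, with filled symbols where the adjusted p was under 0.05. PRM1 P031221 stays between 0.30 and 0.73 and is filled in 9 alternatives, PRM1 A_73_109899 is filled only without low-fertile pool 1, and TNP1 P154222 lies on either side of 0.

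PRM3, an acidic protein encoded between PRM2 and TNP2, does not bind DNA as protamines do and is transcribed with them. A_73_P033486 gave 16.2 and 19.7 in the high-fertile and 23.7 and 25.4 in the low-fertile pools, was well above background in high-fertile pool 2 and low-fertile pool 1, and was not tested (log2 difference 0.54). A_73_P157312 is placed at the same position, chr25:10975412-10975471, and gave 16.1, 12.8, 168 and 10.3. Only the value of low-fertile pool 1 was well above background, and there 2 of the 6 nearest spots were off by over 2 log2 units. The 2 probes differ by G5T, G8C, G26T and A46T, with the base of A_73_P033486 first and positions from the 5′ end. Their first 30 bases are shown with the differing bases in capitals, since 1 probe of this near-identical pair lay in a bright patch. With such spots left out, the log2 difference of A_73_P157312 was -0.30 in place of 1.62.
PRM3 A_73_P033486, bases 1 to 30: tgtcGccGttcctgagaggaggagaGcttt
PRM3 A_73_P157312, bases 1 to 30: tgtcTccCttcctgagaggaggagaTcttt

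Genes that act before or with the protamines, or lie beside them, were then described from 6 lists with 71 genes, of which 56 were on the array and 23 could be tested by their brightest probe. Of these 23, 4 were higher, 6 were lower and 13 did not pass, at a median difference of -0.15 against 0.011 for all 16685 tested genes, of which 26.1% passed (9.53% higher, 16.6% lower). Under spike-in scaling the genes that passed were split into 1 higher and 9 lower, and among the 15 genes left when only probes well above background on all arrays were tested, 4 were higher and 3 lower. Of the 6 lower genes, SOX30, TDRD6, ING2 and TOP2B entered the test through the high-fertile arrays alone, where they are high, so their passing is not support for a difference and their values are given as a description. All named genes below lost the call in limma without a filter and by the methods' t-test, as did every other gene of the array.

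The list of 9 other basic nuclear proteins of sperm also held PRM3, although PRM3 is acidic. Of the 9, 4 were on the array, and of these 3, PRM3 among them, were too dim for the test and 1 was tested. This was H1FNT, a linker histone of spermatids needed for chromatin condensation, at 28.7 and 36.2 in the high-fertile and 63.2 and 48.6 in the low-fertile pools. The groups did not overlap, and the gene was higher by 0.87 on the log2 scale (SE 0.179, adjusted p = 0.0209 in limma), with 1.15 for its other probe. The difference was 0.71 (adjusted p = 0.0978) when high-fertile pool 1 was left out, 0.77 (adjusted p = 0.0621) when low-fertile pool 1 was left out, 0.50 (adjusted p = 0.117) under spike-in scaling and 0.41 (adjusted p = 0.00872) after normexp correction.

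Among the transcription factors that drive protamine expression, 9 of 10 were on the array, 3 were tested and 1 passed, as lower. This was SOX30, a factor required for spermatid development. Its signal was 72.6 and 67.8 in the high-fertile and 17.9 and 10.3 in the low-fertile pools, the last of them not well above background. The log2 difference was -2.28 (SE 0.233, adjusted p = 0.00340 in limma) and -0.77 after normexp background correction. All 11 regulators of stored protamine mRNA were on the array, 4 were tested and 1 passed, as lower. TDRD6, a tudor-domain protein of the chromatoid body, had signals of 35.2 and 47.1 in the high-fertile and 19.8 and 13.4 in the low-fertile pools (log2 difference -1.23, adjusted p = 0.0130), with -0.33 after normexp correction and an adjusted p of 0.0617 without high-fertile pool 2.

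Of 26 genes for histone eviction and protamine loading, 19 were on the array and 9 were tested, with 1 higher and 3 lower. The higher gene was KAT5, the acetyltransferase of the TIP60 complex that acetylates spermatid histones, at 401 and 346 in the high-fertile and 574 and 591 in the low-fertile pools (log2 difference 0.73, adjusted p = 0.0296). EPC1, a subunit of the same complex, was lower, at 102 and 99.6 in the high-fertile and 50.3 and 38.7 in the low-fertile pools (log2 difference -1.11, adjusted p = 0.00651). Members of 1 complex thus differed in opposite directions, and the groups were apart for both. The KAT5 call was lost without high-fertile pool 1 (0.85, adjusted p = 0.0688), without high-fertile pool 2 (0.62, adjusted p = 0.139), without low-fertile pool 2 (0.62, adjusted p = 0.0954) and under spike-in scaling (0.36).

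ING2, a reader of methylated histone tails in spermatids, gave 39.8 and 42.9 in the high-fertile and 22.0 and 18.4 in the low-fertile pools (log2 difference -0.95, adjusted p = 0.00841 in limma). The difference was -0.26 after normexp correction, and the adjusted p was 0.0527 without high-fertile pool 2. TOP2B, the topoisomerase that relieves DNA strain as nucleosomes are removed, gave 23.3 and 30.4 in the high-fertile pools and was not well above background in either low-fertile pool, where it read 8.68 and 6.05. It passed as lower (adjusted p = 0.00417 in limma). No fold is given, since the lowest signal marked well above background in low-fertile pool 2 (6.13) lay under the median of the negative controls of that array (6.36) and sets no usable floor. After normexp correction, which adds an offset of 50, it was -0.33 on the log2 scale. Among the genes seen on all arrays, EPC1 was -0.70 and RMI2, described next to the protamine cluster, -0.73 after the same correction.

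**Figure D4:**
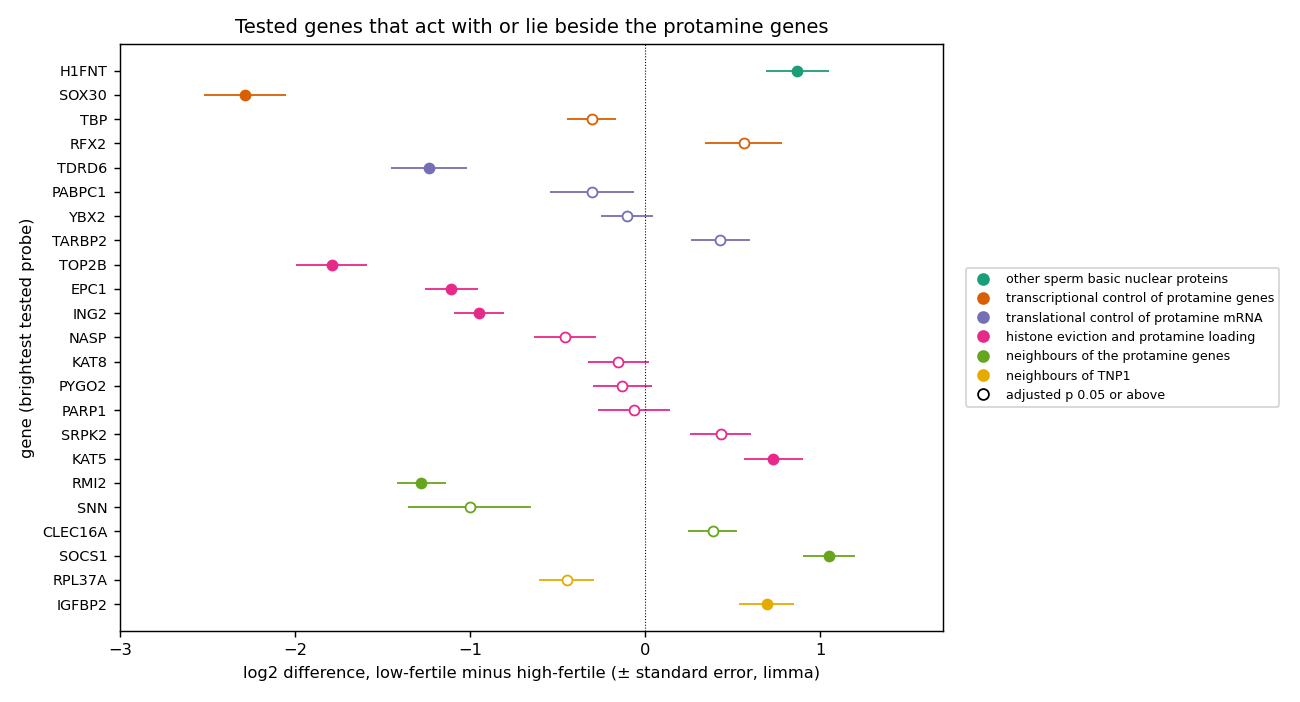
Log2 difference (low-fertile minus high-fertile) with the standard error of limma for the 23 tested genes of the 6 lists, by the brightest tested probe, coloured by list and filled where the adjusted p was under 0.05. SOCS1 (1.05) lies farthest to the right. The points of SOX30, TDRD6, ING2, TOP2B and SNN, at the left, rest on low-fertile signals that were not well above background in at least 1 pool, and in both pools for TOP2B and SNN, whose plotted differences are therefore not exact. PABPC1, PARP1 and PYGO2 were also not well above background in low-fertile pool 2.

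The protamine genes sit in a tight cluster on bovine chromosome 25, in the order SOCS1, TNP2, PRM3, PRM2, PRM1 and RMI2 in the RefSeq annotation of ARS-UCD2.0, which was used for order alone. The genes at the ends of this row differed in opposite directions. SOCS1, an inhibitor of cytokine signalling, had signals of 211 and 205 in the high-fertile and 406 and 406 in the low-fertile pools (log2 difference 1.05, adjusted p = 0.00732 in limma). Its other probes differed by 0.21 and 0.43, and the median of its probes did not pass (0.21, adjusted p = 0.306). RMI2, a subunit of the complex that resolves DNA crossovers, gave 154 and 161 in the high-fertile and 64.0 and 58.3 in the low-fertile pools (log2 difference -1.28, adjusted p = 0.00391). Of the 9 listed neighbours of the cluster 8 were on the array, 4 were tested, 1 was higher and 1 was lower.

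Near TNP1, 5 of 6 listed genes were on the array, 2 were tested and 1 was higher. IGFBP2, a carrier of insulin-like growth factors, gave 54.2 and 65.2 in the high-fertile and 96.5 and 84.9 in the low-fertile pools. The difference was 0.69 on the log2 scale (adjusted p = 0.0285 in limma) and 0.20 by its other probe, and the call was lost without any 1 of the 4 pools, at differences between 0.57 and 0.82, and under spike-in scaling (0.32). After normexp correction the difference was 0.35 (adjusted p = 0.0129). The median of the tested IGFBP2 probes did not pass (0.44, adjusted p = 0.0729 in limma).

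The identity of the samples was checked with marker lists. Of 20 spermatid and sperm markers 19 were on the array and 8 were tested, and ODF1, a protein of the outer dense fibres of the tail, ACR, the acrosomal protease, OAZ3 and TCP11 were well above background on all arrays. The defining tail and acrosome genes SMCP, AKAP4, AKAP3, SPACA1 and CABYR were among the 11 that did not reach the test. The mean normalized log2 signal of the tested sperm markers was 1.41 and 1.50 in the high-fertile and 1.50 and 1.40 in the low-fertile pools, so the groups overlapped under the percentile shift. Under spike-in scaling, 6 of the 8 tested sperm markers had a lower mean in the low-fertile group, and the mean difference over the 8 was -0.38, as was the median of all tested probes. SPATA3 was higher in the low-fertile group (log2 difference 0.72, adjusted p = 0.0373 in limma) and the 6 tested markers other than SPATA3 and ACRV1 did not pass. ACRV1, an acrosomal protein, entered the test through the high-fertile arrays alone, with 27.8 and 33.8 there and 19.5 and 16.4 in the low-fertile pools, so its difference of -0.69 (adjusted p = 0.0306) is a description.

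Markers of other cells passed in 1 of 9 leukocyte, 1 of 2 red cell and 1 of 7 testis somatic genes tested in limma, beside 26.1% of all tested genes. Of 10 leukocyte markers 9 were tested and 8 were well above background on all arrays by at least 1 probe. The mean normalized log2 signal of the tested genes was 2.65 and 2.70 in the high-fertile and 2.98 and 2.95 in the low-fertile pools, a mean difference of 0.29 that was -0.080 under spike-in scaling. PTPRC, the pan-leukocyte surface phosphatase, was higher by 0.78 (adjusted p = 0.0160 in limma) and by 0.18 at its other tested probe, with 0.41 under spike-in scaling. It was the only leukocyte marker to pass. Its signal was 6981 and 7126 in the high-fertile and 11503 and 11388 in the low-fertile pools. LYZ read 13584 and 12423 in the high-fertile and 16233 and 15621 in the low-fertile pools. Both lay far above the array percentiles of 32.7 to 37.1, and the other tested leukocyte markers read lower. The source of these signals was not tested. Of 8 epithelial markers 6 were tested and did not pass in limma, with means of 1.38 and 1.43 in the high-fertile and 1.53 and 1.71 in the low-fertile pools. Their mean difference was 0.22, and -0.15 under spike-in scaling, where 5 of the 6 were below 0. Of 7 red cell markers 2 were tested, with means of 0.53 and 1.22 in the high-fertile and 1.31 and 1.52 in the low-fertile pools, and they went opposite ways. HBB, a globin chain, was 1.24 higher (adjusted p = 0.0118) but entered the test through the low-fertile arrays alone, and HBA differed by -0.17 (adjusted p = 0.705). Of 8 testis somatic markers 7 were tested, with means of 1.19 and 1.30 in the high-fertile and 1.02 and 1.30 in the low-fertile pools, and STAR, the steroidogenic cholesterol carrier, was higher by 0.79 (adjusted p = 0.0212). The other 6 did not pass, the list's median was -0.24, and INHA (-0.52, with 0.41 for its other tested probe), WT1 (-0.68), INSL3 (-0.24) and HSD3B1 (-0.27) had lower means in the low-fertile group, while CYP17A1 (0.26, with -0.76 for its other tested probe) and AMH (0.087) had higher ones. Of 8 earlier germ cell markers 1 was tested, ZBTB16, a factor of undifferentiated spermatogonia, with signals of 18.5 and 30.1 in the high-fertile and 40.2 and 43.2 in the low-fertile pools. The groups did not overlap, at a log2 difference of 0.91 that did not pass (adjusted p = 0.0558) in a gene that entered the test through the low-fertile arrays alone. The part of other cells in the PRM1 difference was not tested.

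The genes whose pattern over the 4 arrays was most like that of PRM1 A_73_P031221 were sought among 5808 annotated genes that were tested and well above background on all arrays. Likeness was the root mean square difference of mean-centred log2 signals, whose median over these genes was 0.274. PAQR9 was nearest at 0.00698, followed by LRIT1 (0.0131), UBAC2 (0.0139), VPS26B (0.0145) and AATK (0.0152). With 4 arrays in 2 groups, a shared pattern does not show a link to PRM1. PRM1 itself was left out of the search, and no PRM2 or TNP2 probe was well above background on all arrays. Of the 4 genes, TNP1 alone could thus appear, so the absence of the others is no result. Genes of the 6 lists could likewise appear only if well above background on all arrays, and none was among these 5.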

How the data were processed

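Sperm RNA of 4 pools was hybridized to 4 single-dye arrays on 1 slide, read in 1 scan. The authors extracted the images with Agilent Feature Extraction 11.5.1.1 and deposited linear processed intensity values, background-subtracted, with a surrogate for spots not above background. They also deposited a table of log2 values after a 75th percentile shift, with array medians of -1.14, -1.14, -1.13 and -1.47, which matched the values recomputed here to within 0.0309 for the members. All columns were mapped to a pool by their labels.

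From the 61657 sample spots, those marked as outliers were dropped, the log2 values were averaged by probe, and each array was shifted by its 75th percentile. A probe carried a mark when a share of at least 0.5 of its spots had it. The test in limma 3.58.1 (R 4.3.3) took the 21033 probes that both pools of either group showed well above background, with Benjamini-Hochberg adjustment over all of them. Python 3.11.15, pandas 2.3.3 and numpy 2.4.6 handled the tables.

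All probes of the 4 genes are named. Of the lists, up to 6 genes higher and 6 lower with the largest change at an adjusted p under 0.05 are named, by the brightest probe, and for likeness the 5 nearest genes. Cell type markers are given by counts, with defining markers named. The members, lists and alternatives were chosen with earlier results of these data known. Alternatives covered the percentile, normexp correction (offset 50), quantile and spike-in scaling, the filter, outlier spots, bright patches, the deposited table, the methods' t-test, a replicate block and each pool left out. Positions are those of Btau_3.1 as the array files give them. P-values measure the spread between pools only.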

Additional observations from a re-analysis of the deposited data

How the results depend on the processing

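The count of probes past the adjusted p was 5632 as reported, 0 with no filter on dim probes (9278 at an unadjusted limma p under 0.05) and 0 by the methods' t-test (6084 unadjusted), and 2644 to 4989 without 1 pool. Among the protamine and transition protein probes 1 passed as reported. It was 0 with no filter (2 unadjusted), 0 under spike-in scaling in limma (0 unadjusted), 0 by the methods' t-test (1 unadjusted) and 0 to 2 without 1 pool. The pathway genes numbered 10 as reported, 0 with no filter (14 unadjusted in limma), 0 by the methods' t-test (12 unadjusted) and 6 to 10 without 1 pool. Leaving out a pool reduces the samples and dropping the filter adds dim probes. Under spike-in scaling the differences of all probes moved by the same amount. The cause of that shift, and of the losses by the methods' t-test, was not tested.

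The difference of TNP1 A_73_P154222 turned from -0.046 to 0.031 after normexp correction and to 0.12 and 0.18 without high-fertile pool 2 and without low-fertile pool 1 (range without 1 pool -0.27 to 0.18), and that of PRM1 A_73_P058211 turned from 0.32 to -0.054 under spike-in scaling. Spike-in scaling subtracts a single value from each array, so it moved the difference of every probe by the same amount. Why it differs from the percentile shift was not tested, nor was the cause of the other turns. The split of calls was 1940 higher and 3692 lower as reported, 2714 and 1625 when only probes well above background on all arrays were tested, and 578 and 6750 under spike-in scaling.

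Pool numbers do not pair the samples: deviations of same-numbered pools correlated at 0.00548 across 21024 probes, which are not independent. With the replicate block, 5331 probes, 1 member probe and 11 pathway genes passed. The precision of the PRM2 and TNP2 values is limited by signal near background.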
